A study of Mus musculus with 4 samples.

Results

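The tumour necrosis factor (TNF) superfamily of ligands and its family of receptors were followed in RNA from mouse primary cells labelled T-helper 17. The members were all protein-coding genes whose symbol starts with Tnfrsf or Tnfsf, together with Tnf, Lta, Ltb, Fas, Fasl, Cd27, Cd70, Cd40, Cd40lg, Ltbr, Ngfr and Eda2r. The rule used names and no measured value. It gave 44 genes, 26 for receptors and 18 for ligands, out of 21764 protein-coding genes and 50600 gene rows. The cells were of strain C57BL/6NJ. There were 4 libraries, numbered as biological replicates 1 to 4, in 1 group. Each has its own biosample record and all share 1 donor record. No control group, treatment or age is given, and sex was not collected. The labels link to a protocol for CD4 T-cell differentiation, and the alignment names in the files carry an hour tag of 0. With 1 donor record and no statement on cultures or animals, spread between libraries may be technical in part.

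Ligands of this superfamily are trimeric proteins, mostly anchored in the membrane, from which a soluble form can be cut. Each binds receptors with cysteine-rich repeats outside the cell. Receptors with a death domain can recruit adaptors that start cell death, while most others recruit TRAF adaptors that turn on NF-kappaB and sustain survival and costimulation. In CD4 T cells the family is known for the help given to B cells through the CD40 ligand, for costimulation through CD27, OX40 and GITR, and for the end of responses through Fas.

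Total counts were 29041979 to 48808978 per library, and the members held 0.152% to 0.16% of them. Markers of T cells were high, with the list of Cd4, Cd3e and Trac summing to 4405 to 4493 TPM (transcript counts divided by exon length and scaled to a fixed total per library). Of 6 markers of Th17 cells, 2 reached 1 TPM in every library, Il17f at 9.83 ± 3.1 and Il17a at 4.22 ± 1.53 TPM (SD, n = 4), and the list summed to 11.5 to 22.3 TPM. Markers of naive T cells summed to 4383 to 5358 TPM, so the genes that define the label were far below those of naive cells. Markers of B cells (5 genes) summed to 2.51 to 3.73 TPM, of natural killer cells (3 genes) to 0.96 to 1.54 TPM, of myeloid cells (4 genes) to 1.55 to 2.73 TPM, of dendritic cells (4 genes) to 0.253 to 0.52 TPM and of stroma (3 genes) to 0.0614 to 0.176 TPM. Among these lists, 1 gene reached 1 TPM in every library, the myeloid marker Itgam at 1.61 ± 0.224 TPM. Of the 2 CD8 T-cell markers, Cd8a was at 0.15 ± 0.0772 TPM and Cd8b1 at 42.9 ± 2.88 TPM, and the list summed to 39.1 to 46.1 TPM. A heat shock list (13 of its 14 genes passed the filter on low counts) was highest in replicate 4, with a mean deviation of 0.79 on the log2 scale, and a list of 18 interferon-stimulated genes was lowest in replicate 3, at -0.54.

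Of the 44 members, 24 reached 1 TPM in every library, which is 54.5%, beside 45.6% of all protein-coding genes. By role these were 15 of 26 receptor genes and 9 of 18 ligand genes. A further 2 genes, Tnfsf14 and Tnfrsf19, had a mean above 1 TPM without reaching it in every library, and 18 were below it in every library. Among those 18, 8 had no count at all. The median member was at 5.38 TPM. The ligand genes summed to 1586 ± 48.2 TPM and the receptor genes to 1268 ± 49.5 TPM, but 69.9% ± 1.54 of the ligand sum came from Ltb alone and 38.1% ± 0.825 of the receptor sum from Cd27. In bulk RNA, fewer cells with a transcript and less transcript per cell cannot be told apart.

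**Figure D1:**
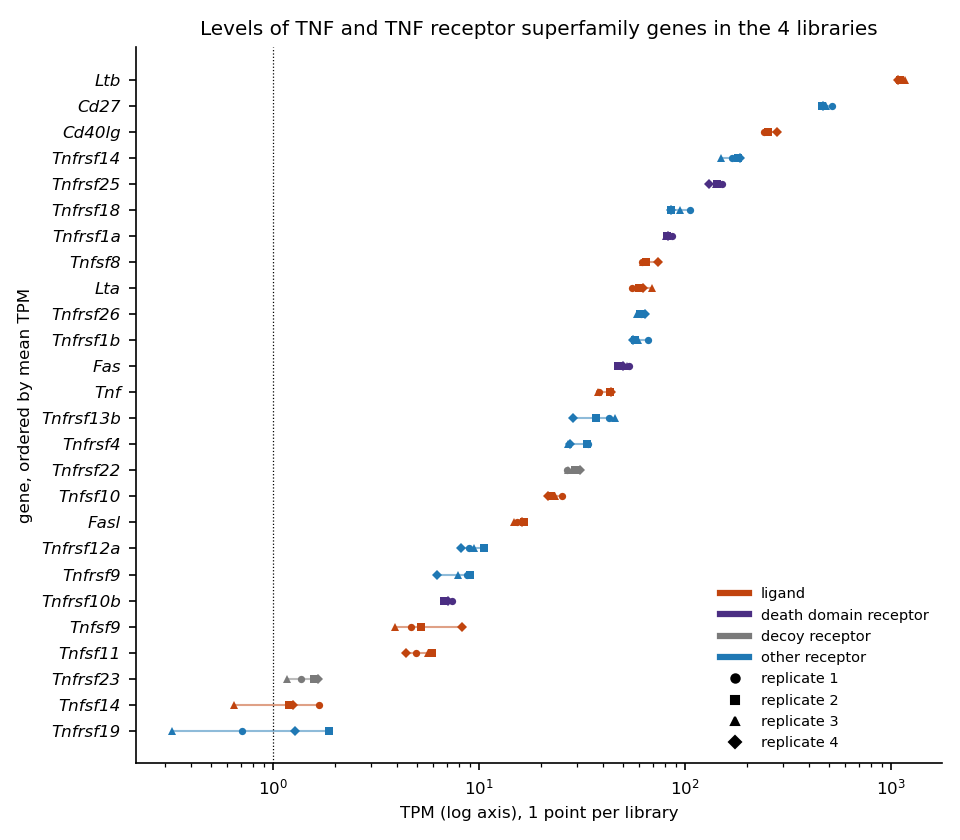
TPM of the 26 members with a mean of at least 1 TPM, on a log axis, with 1 point per library and a line from the lowest to the highest, coloured by role. The 5 highest genes were each above 100 TPM in every library, and the 2 lowest, Tnfsf14 and Tnfrsf19, fell on both sides of the dotted line at 1 TPM.

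The most abundant ligand gene was Ltb (ENSMUSG00000024399, chromosome 17, 35194439 to 35196320, plus strand, mm10), which encodes the membrane-anchoring subunit of the lymphotoxin heterotrimer. It was at 1079, 1107, 1174 and 1078 TPM in replicates 1 to 4, the 99.6th percentile of nuclear protein-coding genes by mean level. These 4 values lay close together, with a coefficient of variation (CV, SD over mean) of 4.03%. The promoter of Ltb and 1 promoter of Tnfrsf9, the gene of a costimulatory receptor induced on activation, are shown because they were the 2 among the members' promoters that held a kappaB-like motif. They come from RefSeq (GRCm38.p6), cover 250 bases before to 50 bases after the start of transcription and read 5′ to 3′ along the gene. Capitals mark the motif.
Ltb, chr17:35194257-35194556, plus strand: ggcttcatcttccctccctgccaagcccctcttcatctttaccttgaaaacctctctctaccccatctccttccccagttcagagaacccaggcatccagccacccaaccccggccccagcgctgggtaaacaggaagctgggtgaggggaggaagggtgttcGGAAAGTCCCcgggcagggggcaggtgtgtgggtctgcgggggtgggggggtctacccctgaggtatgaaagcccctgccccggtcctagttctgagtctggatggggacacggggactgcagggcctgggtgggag
Tnfrsf9, chr4:150927749-150928048, plus strand: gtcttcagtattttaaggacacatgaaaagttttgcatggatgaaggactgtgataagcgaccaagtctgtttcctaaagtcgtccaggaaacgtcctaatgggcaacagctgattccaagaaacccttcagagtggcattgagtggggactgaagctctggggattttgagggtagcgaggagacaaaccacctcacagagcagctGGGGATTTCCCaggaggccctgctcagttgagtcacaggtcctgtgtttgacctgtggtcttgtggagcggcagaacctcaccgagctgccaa
Only 4 spellings of the kappaB consensus, the site bound by NF-kappaB dimers, were searched, on both strands. Sites spelled otherwise or lying outside these promoter stretches were not looked for, so members without a match may still have one. In Ltb the match was on the minus strand and began 87 bases before the start. In Tnfrsf9 matches to 2 of the spellings overlapped, the first of them 43 bases before this start. RefSeq promoters were matched for 34 of the 44 members by symbol. A motif was found in 5.88% of those 34 genes and in 1.85% of the 27025 genes with a promoter in the table, so each of the few matches among the members weighs heavily in that share. Tnfrsf9, with such a motif, was at 7.97 ± 1.25 TPM and Ltb at 1109 ± 44.7 TPM.

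Ltb lies in a cluster of 3 ligand genes within 10.9 kb of chromosome 17 (35194439 to 35205351) with Tnf and Lta. Tnf, the gene of the founding cytokine (35199381 to 35202007, minus strand), had values of 38.2, 43.1, 37.8 and 43.5 TPM. Lta, the gene of the soluble lymphotoxin subunit (35203165 to 35205351, minus strand), stood at 55.5, 60.1, 69.4 and 62.8 TPM. Ltb thus exceeded its neighbours in every library, by a mean of 18.0-fold over Lta (16.9 to 19.5) and 27.3-fold over Tnf (24.8 to 31.1). Lta exceeded Tnf by 1.52-fold (1.39 to 1.84), also in 4 of 4 libraries. For each of these ratios the exact two-sided sign-flip permutation test gave p = 0.13, the smallest that 4 libraries allow, so no such ratio could pass 0.05.

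Cd40lg, the gene of the CD40 ligand (ENSMUSG00000031132, chromosome X, 57212143 to 57224042, plus strand), was the ligand gene next in level, at 240, 254, 253 and 280 TPM. Tnfsf8, for the CD30 ligand, was at 61.6, 64.5, 62.8 and 74.3 TPM, and was highest in replicate 4. Tnfsf10, for the death ligand TRAIL, was at 25.2, 22.3, 23.3 and 21.6 TPM, and Fasl, for the Fas ligand, at 15.3, 16.5, 14.7 and 16.1 TPM. The CV was 6.53% for Cd40lg, 8.76% for Tnfsf8 and 6.82% for Tnfsf10, where counting alone gives 1.7%, 1.93% and 2.75%. The CV of Fasl, 5.18%, was no larger than the 5.51% that counting alone gives at its 247 to 405 counts per library.

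Lower in level was Tnfsf11, which encodes RANKL, the bone-resorption and lymph node cytokine, at 4.94, 5.9, 5.66 and 4.43 TPM. Tnfsf9, for the ligand of the Tnfrsf9 product, was at 4.68, 5.24, 3.89 and 8.3 TPM, so its replicate 4 stood above the rest. Tnfsf14, which encodes LIGHT, was at 1.68, 1.19, 0.643 and 1.25 TPM, on 17 to 30 counts a library. The CV was 34.9% for Tnfsf9 and 35.7% for Tnfsf14, and neither varied more than the trend for its abundance (edgeR adjusted p = 0.97 and 0.995).

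The remaining ligand genes were at or near the detection limit. Tnfsf4, for the OX40 ligand, had 32 counts over all libraries (0.41 ± 0.283 TPM), Tnfsf13b, for the B-cell survival factor BAFF, had 21, Tnfsf15, for the DR3 ligand, had 7 and Cd70, for the CD27 ligand, had 2. Tnfsf18, for the GITR ligand, had 0 counts throughout, so up to 0.102 to 0.174 TPM would go unseen (a floor of 3 counts, by library). These ligands are known mainly from antigen-presenting cells. Tnfsf12, Tnfsf13 and their joint read-through gene Tnfsfm13 also had 0 counts, but they overlap on the same strand. Their exons shared 48.3%, 60.0% and 76.7% of their bases, and fragments that touch more than 1 gene were left out of the counts, so no limit is set for them.

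Among receptors, Cd27 (ENSMUSG00000030336, chromosome 6, 125232622 to 125237010, minus strand), a costimulatory receptor of naive and memory T cells, was highest. It was at 517, 462, 486 and 469 TPM. Tnfrsf14, for the herpesvirus entry mediator, which binds LIGHT and the inhibitory receptor BTLA, was at 170, 181, 149 and 186 TPM. Tnfrsf14 was lowest in replicate 3, whereas Cd27 was highest in replicate 1. Tnfrsf18, for GITR, was at 106, 85.2, 94.4 and 85.5 TPM, and Tnfrsf4, for OX40, at 33.9, 33.4, 27 and 27.5 TPM. GITR and OX40 are costimulatory receptors that regulatory T cells carry at high level. Their genes lie within 15.1 kb on chromosome 4 (156013843 to 156028895), and Tnfrsf18 exceeded Tnfrsf4 by 3.05-fold (2.55 to 3.5) in 4 of 4 libraries. Beside them the regulatory T-cell markers Foxp3, Il2ra and Ikzf2 summed to 8.47 to 9.98 TPM, and the part of such cells in these levels was not tested.

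Transcripts of both receptors for TNF itself were present. Tnfrsf1a, the death domain receptor (chromosome 6, 125349362 to 125362484, plus strand), was at 86.4, 81.8, 80.6 and 83.1 TPM. Tnfrsf1b, the receptor without a death domain (chromosome 4, 145213463 to 145246870, minus strand), stood at 66.3, 57.2, 59 and 55.8 TPM. Tnfrsf1a was above Tnfrsf1b by 1.4-fold (1.3 to 1.49) in 4 of 4 libraries. Its CV of 2.98% was the lowest of the 26 members tested for spread.

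Of the 6 death domain receptor genes, 4 reached 1 TPM in every library. The highest was Tnfrsf25, for DR3, a costimulator of T cells, at 151, 143, 141 and 130 TPM. Fas was at 53.2, 47.2, 52.1 and 49.9 TPM, and Tnfrsf10b, the mouse TRAIL receptor gene, at 7.42, 6.73, 6.77 and 7.08 TPM. The CV was 6.08% for Tnfrsf25 and 5.26% for Fas, where counting alone gives 1.69% and 3.18%. For Tnfrsf10b the CV of 4.59% was under the 6.43% of counting alone. Tnfrsf21, for DR6, had 26 counts in all, and Ngfr, for the neurotrophin receptor, had 0, so up to 0.0612 to 0.105 TPM would go unseen.

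Mouse cells carry a group of related receptor genes on chromosome 7 (143607659 to 143685872, minus strand), of which Tnfrsf22 and Tnfrsf23 encode decoys for TRAIL. Tnfrsf26 was at 61, 60.3, 58.6 and 63.7 TPM, Tnfrsf22 at 26.8, 29.1, 26.9 and 31 TPM, and Tnfrsf23 at 1.36, 1.58, 1.17 and 1.66 TPM. Their order was the same in 4 of 4 libraries, with Tnfrsf22 exceeding Tnfrsf23 by 19.9-fold (18.5 to 23.0). Fragments that map to more than 1 of these similar genes were not counted, so their levels are uncertain. The decoy gene Tnfrsf11b, for osteoprotegerin, had 0 counts, so up to 0.0749 to 0.128 TPM would go unseen.

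Receptors known from B cells differed from each other. Tnfrsf13b, for TACI (ENSMUSG00000010142, chromosome 11, 61126755 to 61149372, plus strand), was at 42.5, 37.1, 45.5 and 28.6 TPM on 1004 to 1836 counts a library. By contrast Tnfrsf13c, for the BAFF receptor, was at 0.536, 0.0998, 0.488 and 0.0384 TPM on 26 counts, Cd40 had 5 counts and Tnfrsf17, for BCMA, had 0. Of the B-cell markers the highest were Cd79b at 1.46 ± 0.543 and Cd79a at 1.37 ± 0.321 TPM, while Pax5 was at 0.0191 TPM. The B-cell list summed to 2.91, 2.51, 3.73 and 2.6 TPM in replicates 1 to 4. In each library Tnfrsf13b lay above that whole sum, and the part of B cells in its level was not tested. Tnfrsf13b was lowest in replicate 4, the library with the highest heat shock list, and the part of that library's state was not tested.

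The other receptor genes were low. Tnfrsf12a, for the TWEAK receptor, was at 8.98, 10.6, 9.5 and 8.19 TPM, and Tnfrsf9 at 8.73, 9.03, 7.88 and 6.25 TPM. Tnfrsf19, for the embryonic receptor TROY, was at 0.704, 1.88, 0.324 and 1.28 TPM, high in replicates 2 and 4 and low in 1 and 3. Ltbr, for the lymphotoxin beta receptor of stromal and myeloid cells, had 16 counts in all, Tnfrsf8, for CD30, had 3, Tnfrsf11a, for RANK, had 3, and Eda2r had 0.

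Levels placed the 26 members above 1 TPM in an order of 25 neighbouring pairs. In 15 of these the order was the same in all 4 libraries. The top 8 genes, from Ltb to Tnfsf8, kept their order in every library. Below them Tnfsf8 and Lta, Lta and Tnfrsf26, and Tnfrsf26 and Tnfrsf1b changed places between libraries, as did Tnf and Tnfrsf13b, Tnfrsf4 and Tnfrsf22, Tnfrsf9 and Tnfrsf10b, Tnfrsf10b and Tnfsf9, Tnfsf9 and Tnfsf11, Tnfrsf23 and Tnfsf14, and Tnfsf14 and Tnfrsf19. For these neighbours the order by mean level did not hold in every library, and their differences were not tested.

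Of the members, 24 lie in 9 clusters of genes no more than 500 kb apart. Some clusters held both genes at 1 TPM in every library and genes that did not reach it. Over all members 54.5% reached that level. Whether clusters were mixed more often than that share gives was not tested. In the chromosome 11 cluster (69682577 to 69696098) all 3 genes had 0 counts and overlap, so no limit is set for them. On chromosome 6 (125232622 to 125362484) Ltbr, at 0.146 TPM, lies between Cd27 and Tnfrsf1a. On chromosome 4 (145213463 to 145315164) Tnfrsf8, at 0.018 TPM, neighbours Tnfrsf1b, and Tnfsf15, at 0.0555 TPM, neighbours Tnfsf8 (63727084 to 63861347). On chromosome 1 (161395409 to 161788495) Fasl was the 1 of 3 genes at 1 TPM in every library, beside Tnfsf4 and Tnfsf18. Tnfsf9 was likewise the 1 of 3 on chromosome 17 (57105385 to 57194189), beside Cd70 and Tnfsf14. All 3 genes reached 1 TPM in every library in the Ltb and Tnfrsf26 clusters, and 2 of 2 did in the Tnfrsf4 cluster.

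Receptors were then set against ligands within each library in a chosen list of known pairs, to ask which side of each these cells expressed. The list was not complete. Tnfrsf19, Tnfrsf21, Tnfrsf22, Tnfrsf23, Tnfrsf26, Ngfr and Eda2r were in no pair, and Tnfrsf14 was paired with Tnfsf14 alone. Some genes, such as Tnfrsf1a and Lta, stood in more than 1 pair, so the counts below are of pairs and not of genes. Of 24 pairs, 3 with Tnfsf12 or Tnfsf13 were left out because those genes overlap another, and 2 had both partners below 1 TPM in every library. Among the other 19, both partners reached 1 TPM in every library in 7, the receptor alone in 6, the ligand alone in 5 and neither in 1, Ltbr with Tnfsf14. The receptor was higher in all 4 libraries in 10 pairs and the ligand in 7. The exact sign-flip permutation test, adjusted over 24 pairs, gave 0.15 for each of these 17, which is the smallest p of 0.13 after adjustment, so no pair could pass.

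**Figure D2:**
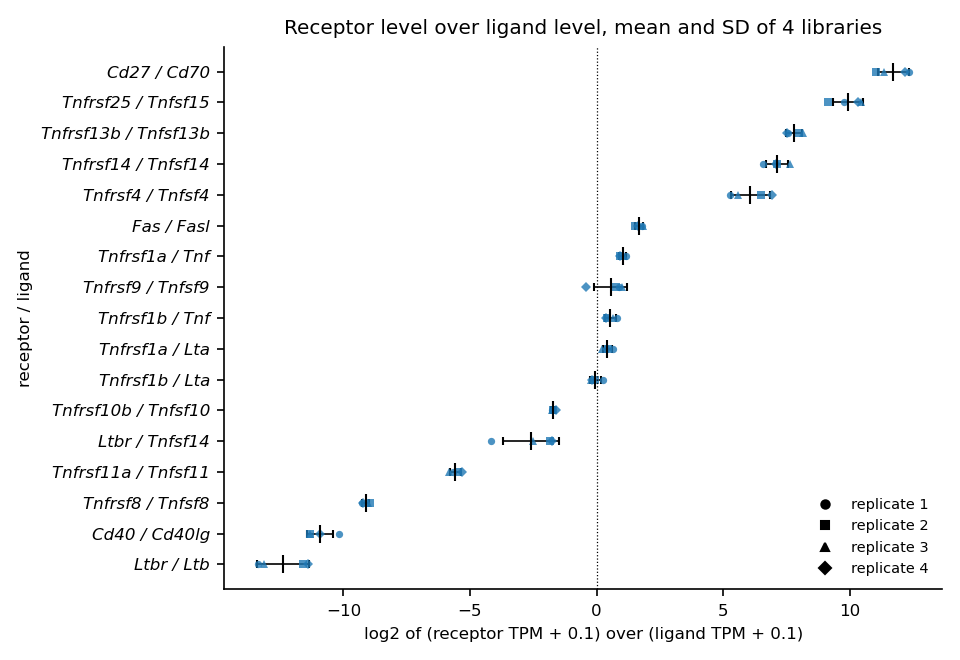
Log2 ratio of receptor to ligand, with 0.1 TPM added to both, for the 17 pairs in which both genes had counts and at least 1 of them reached 1 TPM in some library; points are the 4 libraries, bars the mean and SD. Tnfrsf9 over Tnfsf9 and Tnfrsf1b over Lta straddle 0, and the far ratios at either end rest on the few counts of 1 partner.

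In the 6 pairs with the receptor alone the gap was large. Cd27 was 9203-fold above Cd70 (95% exact counting interval 2548 to 75996, on 2 Cd70 counts), Tnfrsf25 was 3051-fold above Tnfsf15 (1480 to 7589, on 7 counts) and Tnfrsf13b was 569-fold above Tnfsf13b (372 to 920, on 21 counts). Tnfrsf4 was 77.9-fold above Tnfsf4 (55 to 114). Tnfrsf18 was at least 583-fold higher than Tnfsf18 against a floor of 3 counts per library. Tnfrsf14 stood above Tnfsf14 by 7.11 ± 0.44 on the log2 scale with a pseudocount of 0.1.

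In the 5 pairs with the ligand alone the cells had the ligand transcript and hardly any receptor transcript. Ltb was 7445-fold above Ltbr (4584 to 13025, on 16 counts), Cd40lg was 8002-fold above Cd40 (3428 to 24649, on 5 counts) and Tnfsf8 was 3467-fold above Tnfrsf8 (1186 to 16815, on 3 counts). Tnfsf11 was 474-fold above Tnfrsf11a (161 to 2305, on 3 counts) and at least 38.6-fold higher than Tnfrsf11b against the floor. These intervals cover counting error over the summed libraries and not the spread between them.

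Transcripts of both partners were present in the pairs of TNF, Fas, TRAIL and the Tnfrsf9 product. The log2 ratio of Tnfrsf1a to Tnf was 1.03 ± 0.12 and that of Tnfrsf1b to Tnf 0.55 ± 0.2, each positive in 4 of 4 libraries. Fas exceeded Fasl by 1.69 ± 0.15, whereas Tnfrsf10b lay below Tnfsf10, at -1.71 ± 0.08. The TRAIL decoy genes Tnfrsf22 and Tnfrsf23 were not among the pairs, unlike the decoy gene Tnfrsf11b, and do not enter the pair counts. Tnfrsf22 was at 28.5 ± 1.99 TPM and Tnfrsf23 at 1.44 ± 0.219 TPM, beside 23.1 ± 1.58 TPM for Tnfsf10. Tnfrsf1a exceeded Lta by 0.43 ± 0.17, and Tnfrsf1b and Lta were close, at -0.05 ± 0.22 with the receptor higher in 1 of 4 libraries (exact sign-flip permutation p = 0.75). For Tnfrsf9 and Tnfsf9 the log2 ratio was 0.56 ± 0.65 and turned negative in replicate 4 (exact sign-flip permutation p = 0.25, positive in 3 of 4 libraries). Without replicate 4 it was 0.89.

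Partners from outside the ligand family were read from a list of 14 genes, of which 4 reached 1 TPM in every library. Btla, the inhibitory partner of the Tnfrsf14 product, was at 166, 167, 156 and 160 TPM. Tnfrsf14 and Btla were nearly level, with a log2 ratio of 0.07 ± 0.12, positive in 3 of 4 libraries (exact sign-flip permutation p = 0.375). Cd160, another partner of the same receptor, was at 2.03 ± 0.457 TPM, Cd5 at 875 ± 85.6 and Grn at 12.2 ± 0.788 TPM.

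Most genes listed for the machinery below the receptors reached 1 TPM in every library. The TRAF list also held genes that are not TRAF adaptors themselves, such as Traf3ip3, Trafd1 and Traip. All 13 genes of the TRAF list reached 1 TPM in every library, with a median of 59.1 TPM, led by Traf3ip3 at 236 ± 7.96, Traf7 at 102 ± 4.38, Traf3 at 68.9 ± 6.63, Traf1 at 66.1 ± 7.09 and Traf4 at 62.2 ± 5.47 TPM. Of 13 genes for death domain adaptors and the receptor complex, 12 reached it. The initiator protease gene Casp8 was at 250 ± 9.39, Daxx at 150 ± 12.7, the ubiquitin ligase gene Birc2 at 85.2 ± 3.32, Ripk3 at 84.4 ± 3.46 and Birc3 at 80.8 ± 7.19 TPM. The exception was Mlkl, the effector of necroptosis, with 32 counts, at 0.313, 0.0437, 0.122 and 0.705 TPM.

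All 15 genes for linear ubiquitin and the TAK1 and IKK kinases reached 1 TPM in every library, with a median of 72.1 TPM. They were led by Rbck1 at 220 ± 6.83, Tab2 at 117 ± 1.77, Otulin at 111 ± 10.4, Rnf31 at 93.3 ± 8.72 and Sharpin at 83.6 ± 0.721 TPM, which apart from Tab2 encode the linear ubiquitin ligase complex and its deubiquitinase. A list drawn up for feedback inhibitors of NF-kappaB reached it in 10 of 12 cases (Tnfaip2 and Tnip3 were below). Not every gene in it encodes such an inhibitor, and Tnfaip2 and Tnfaip8 do not. The list was led by Nfkbia at 345 ± 33.9, Tnip1 at 146 ± 3.19, Tax1bp1 at 69.8 ± 1.94, Nfkbib at 53.7 ± 2.31 and Nfkbie at 50.6 ± 4.75 TPM. Genes for ligand shedding did in 7 of 9 (Rhbdf1 and Timp3 were below). Frmd8, a cofactor of the sheddase, was at 254 ± 28.3, Adam10 at 109 ± 6.83, the TNF sheddase gene Adam17 at 46.1 ± 3.64, Sppl2a at 43.5 ± 1.13 and Sppl2b at 28.1 ± 4.18 TPM. The inhibitor gene Timp3 had 0 counts.

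**Figure D3:**
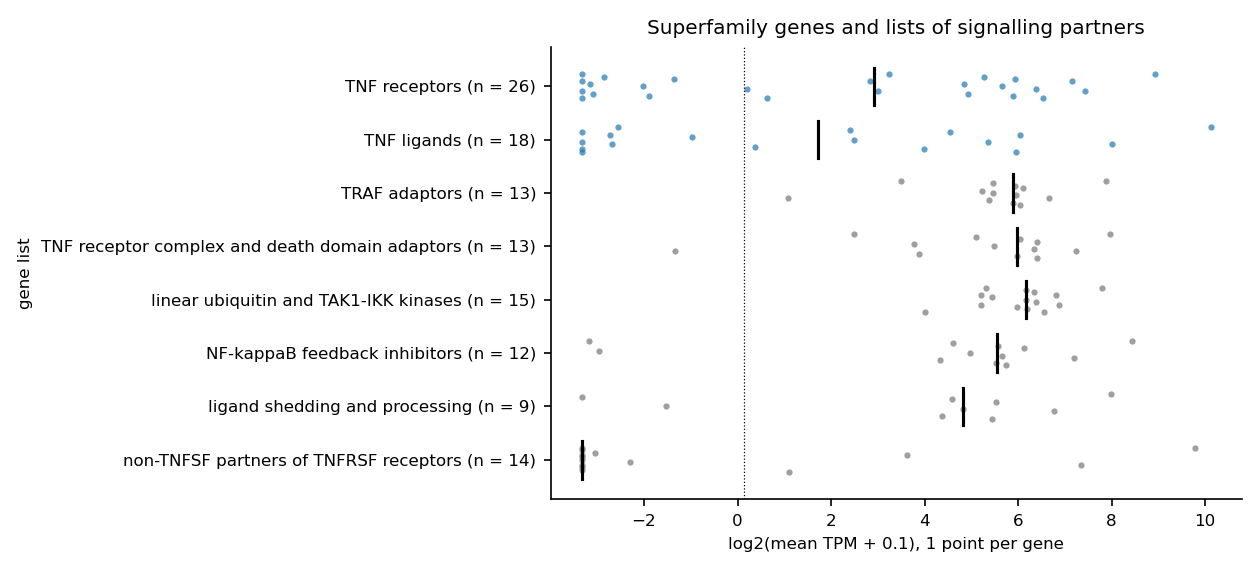
Mean TPM of each gene, as log2(TPM + 0.1), for the 26 receptor and 18 ligand genes and for 6 lists of partners; bars mark medians and the dotted line 1 TPM. Receptors and ligands spread from 0 counts to above 100 TPM, while the TRAF and ubiquitin lists lie wholly above 1 TPM.

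The last question was how the members differed between libraries. All 26 genes with a mean above 1 TPM passed the filter on low counts, and the other 18 did not. None of the 26 varied more than the trend for its abundance (edgeR's quasi-likelihood dispersions, one-sided F test, adjusted p below 0.05), beside 0.193% of the 12464 genes tested. DESeq2 marked 0 of them as dispersion outliers, beside 0.866% of the same genes. At an unadjusted p below 0.05 there were 2, Tnfrsf19 and Tnfrsf13b, beside 5.34% of all genes tested. By Dixon's ratio for 4 values, 0 of the 26 had a library standing apart in TPM, beside 4.69% of all genes tested. The median CV was 8.28% over the 26 members and 7.94% over all genes tested.

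**Figure D4:**
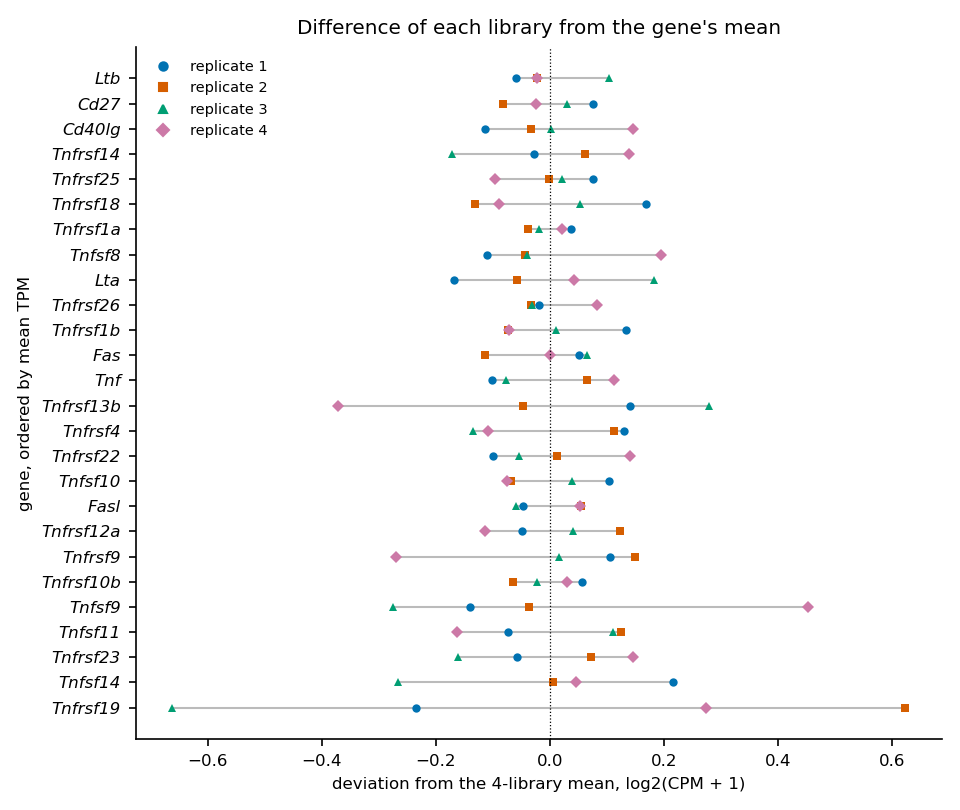
Difference of each library from the gene's own mean, in log2(CPM + 1), for the 26 members past the filter. Most genes stay within 0.2 of their mean; Tnfrsf19 ranges from -0.66 to 0.62, Tnfsf9 reaches 0.45 and Tnfrsf13b -0.37 in replicate 4.

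Tnfrsf19 had the widest spread, with 28, 89, 22 and 79 counts and a CV of 64.9%, where counting alone gives 16.2% (edgeR adjusted p = 0.465). Without replicate 4 it was called (edgeR adjusted p = 0.0367), in a fit that called 86 of 12472 genes (0.69%) where the fit to all 4 libraries called 24. Tnfrsf13b had a CV of 19.3% against 2.94% from counting (edgeR adjusted p = 0.57). In a fit without the filter on low counts both were called (edgeR adjusted p = 0.00192 and 0.0065), which called 349 of 21421 genes (1.63%).

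Deviations were taken in log2(CPM + 1), where CPM is counts scaled by library size. Over the 26 members their mean was -0.0005, 0.02, -0.04 and 0.02 in library order. Among them Tnfrsf19 alone was at 0.62 in replicate 2 and -0.66 in replicate 3. Beside these the heat shock list was at 0.79 in replicate 4 and the interferon-stimulated list at -0.54 in replicate 3. The part of those library states in the members' values was not tested. Replicate 1 held the highest value of 10 members, replicate 2 of 5, replicate 3 of 3 and replicate 4 of 8, beside 33.3%, 25.0%, 18.3% and 23.3% of all genes tested. The lowest value fell in replicate 1 for 4 members, in replicate 2 for 4, in replicate 3 for 10 and in replicate 4 for 8, beside 18.7%, 14.5%, 31.0% and 35.7% of all genes tested. Receptors and ligands had opposite signs in replicates 1, 2 and 4. There receptors deviated by 0.03, 0.04 and -0.02 and ligands by -0.05, -0.001 and 0.08. That contrast was not tested. The largest ligand deviation in replicate 4 was that of Tnfsf9, at 0.45. In replicate 2 the largest receptor deviation was that of Tnfrsf19, at 0.62, ahead of Tnfrsf9 at 0.15. The receptor mean in replicate 2 thus rested largely on 1 gene.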

How the data were processed

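RNA from 4 libraries of mouse cells labelled Th17 was sequenced as total RNA, per the labels, although the linked library protocol is titled for poly(A)-selected RNA. Raw counts per gene were deposited; per the file headers the counter was featureCounts (version 1.4.6-p4), run over GENCODE M13 exons in mm10 on reverse-stranded fragments with both ends mapped. No option for multiply mapping or multiply assigned fragments stands in that command. The columns of other samples numbered 0.

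Gene symbols were looked up in GENCODE M21, which held the IDs of 50376 of 50600 rows. TPM was computed from counts and exon length, and log2 ratios used a pseudocount of 0.1 TPM. Spread was tested with edgeR 4.0.16 (TMM, filterByExpr, intercept-only quasi-likelihood fit, one-sided F test of each dispersion against its trend, Benjamini-Hochberg adjustment), with DESeq2 1.42.0 as an alternative, in R 4.3.3. The script was tested on simulated data. Other steps used Python 3.11.15 and scipy 1.17.1. Intervals (95%, exact) and floors of 3 counts cover counting error only. F test p-values measure the spread between these libraries only. Sign-flip p-values ask whether a pair of genes differs in level across these libraries, and do not measure spread.

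Members and lists were chosen with earlier results of these data known. Members with a mean of 1 TPM or more were named with their values, other members with counts, and of each pathway list the 5 genes of highest mean. Mlkl, Timp3, Rhbdf1, Tnfaip2 and Tnip3 were named after their values were seen. Alternatives changed the normalization, filter, threshold, pseudocount, length correction and libraries.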

Additional observations from a re-analysis of the deposited data

Results flagged for a closer look

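The log2 ratio of Tnfrsf9 over Tnfsf9 was -0.4034 in replicate 4 and 0.88, 0.77 and 1.0 in replicates 1 to 3, so that library stood apart from the others by Dixon's ratio for 4 values. In it Tnfrsf9 was at its lowest, 6.25 TPM, and Tnfsf9 at its highest, 8.3 TPM.

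The sum of receptor TPM was 1341 in replicate 1 and 1248, 1246 and 1235 in replicates 2 to 4, so replicate 1 stood apart by the same criterion. Cd27 contributed 517 TPM there, its highest value. Chance flags about 1 in 20 groups, and 4.69% of the genes tested had a library standing apart in this way.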

How the results depend on the processing

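No paired analysis was possible because there is only 1 group. The count of members varying more than the trend was 0, rose to 2 (Tnfrsf13b and Tnfrsf19) with no filter on low counts, and ran from 0 to 1 when each replicate was left out, the 1 being Tnfrsf19 without replicate 4, where the count over all genes tested also rose, from 24 to 86. The range between libraries of the members' mean deviation was 0.06067, became 0.01363 with CPM + 5 in place of CPM + 1, and ran from 0.02187 (without replicate 3) to 0.06067 when a replicate was left out. The log2 ratio of Tnfrsf1b over Lta turned from -0.05 to 1.407 with CPM in place of TPM, which drops the length correction, and ran from -0.158 (without replicate 1) to 0.005615 (without replicate 3) when a replicate was left out. The exon lengths behind that correction are 3818 bases for Tnfrsf1b and 1383 for Lta. The causes of the other changes were not tested. Across the settings run, 23 to 26 members reached the level threshold, 12 to 19 neighbouring pairs kept their order in all libraries, and the receptor was higher in 10 to 12 pairs. Members with few counts limit the far ratios, which move with the pseudocount.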
